A study of Rattus norvegicus with 16 samples.

Results

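The apolipoprotein genes described here are 10 genes, Apoa1, Apoa2, Apoa4, Apoa5, Apob, Apoc1, Apoc3, Apoe, Apoh and Apom, in adult rat liver. They were taken by name, and each was found on the array through the RefSeq accession of its probe. All 10 were present, each with 1 probe, among 30367 probes, and all 10 belonged to the 12140 probes bright enough in liver to be tested. The livers came from male Sprague-Dawley rats aged 78 to 86 days, with 4 arrays in each of 4 groups and 16 arrays in all. In group C the dams received corn oil and kept their own litters, and in group CC the dams received corn oil and the litters were fostered at birth to another dam of the same treatment. In group M the dams received 1 mg/kg per day of polychlorinated biphenyls, organochlorine pesticides and methyl mercury, mixed in corn oil, through gestation and lactation, to postnatal day 20, and kept their litters. Group MM had that exposure and was fostered between dams exposed in the same way. The rats were adult when sampled, and each array carried the pooled RNA of 2 of the 8 pups of a group. The labels do not tie pups to litters, so p-values measure the spread between pools. The M arrays were treated as exposed, following their titles and treatment field, although their description field contains the word control.

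Apolipoproteins are the proteins that package lipid for transport in blood. Apob forms the backbone of very low density lipoprotein, the particle in which the liver exports triglyceride, and stays with it for life. The other members are exchangeable or carried proteins that build high density lipoprotein, steer the enzymes that break down triglyceride, or act as ligands that return remnants to the liver. The hepatocyte is the main source of most of them, and Apoe and Apoc1 are also made by macrophages.

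Several members lie side by side in the genome. In the RefSeq annotation of the rat assembly GRCr8, Apoe and Apoc1 are neighbours on chromosome 1, next to Apoc4 and Apoc2, and Apoa1, Apoc3, Apoa4 and Apoa5 form a cluster on chromosome 8. Probe coordinates refer to an earlier assembly and are left out. The RefSeq promoter table of GRCr8 held 6 of the 10 members, Apoa4, Apoa5, Apoc1, Apoe, Apoh and Apom. The 250 bases before the annotated start are shown for 2 members of each cluster, because Apoc1 and Apoe, and likewise Apoa4 and Apoa5, are neighbours whose values below differ. Apoc1 and Apoa5 have 2 listed starts each, of which the upstream one is shown, and Apoe has 3, of which the middle one is shown. Capitals mark the GC box letters GGGCGG and the TATA letters TATAAA, each on either strand.
Apoc1, chr1:88478306-88478555, minus strand: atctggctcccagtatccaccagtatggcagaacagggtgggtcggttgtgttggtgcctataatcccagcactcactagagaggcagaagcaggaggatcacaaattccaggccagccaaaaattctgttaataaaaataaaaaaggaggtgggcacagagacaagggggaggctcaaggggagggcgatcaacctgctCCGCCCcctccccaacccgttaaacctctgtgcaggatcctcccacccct
Apoe, chr1:88484700-88484949, minus strand: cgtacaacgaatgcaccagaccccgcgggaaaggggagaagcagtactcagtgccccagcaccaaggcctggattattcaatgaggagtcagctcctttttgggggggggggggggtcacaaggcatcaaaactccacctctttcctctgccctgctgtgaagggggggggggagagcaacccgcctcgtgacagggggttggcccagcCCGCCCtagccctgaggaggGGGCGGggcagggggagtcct
Apoa4, chr8:55435529-55435778, plus strand: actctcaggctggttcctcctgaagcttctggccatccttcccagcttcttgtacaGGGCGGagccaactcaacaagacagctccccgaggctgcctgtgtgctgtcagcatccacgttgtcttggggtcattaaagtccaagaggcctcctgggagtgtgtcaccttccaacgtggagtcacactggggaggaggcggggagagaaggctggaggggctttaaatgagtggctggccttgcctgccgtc
Apoa5, chr8:55457621-55457870, plus strand: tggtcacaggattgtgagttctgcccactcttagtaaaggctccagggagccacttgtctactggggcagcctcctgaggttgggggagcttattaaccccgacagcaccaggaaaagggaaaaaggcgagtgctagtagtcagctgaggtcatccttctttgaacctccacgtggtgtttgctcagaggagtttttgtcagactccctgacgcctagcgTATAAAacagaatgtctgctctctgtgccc
A GC box was present in 5 of the 10 windows of the matched members, which belong to Apoc1, Apoe and Apoa4, and in 30.5% of 33469 promoter windows in the table. Windows of the same gene can overlap. Both Apoc1 windows hold the same box, and the middle and last Apoe windows hold the same boxes. By gene, 3 of the 6 matched members had a GC box. The Apoe window shown was chosen because it holds these letters, and the window of its upstream start holds none of the motifs searched. In the Apoe window shown it occurred at 2 places, 41 to 36 bases before the start on the strand opposite to the one printed and 21 to 16 bases before it on the printed strand. TATAAA was present in 2 of the 10 windows and in 12.9% of all windows. Both windows are of Apoa5 and hold the same site, at 30 to 25 bases before the start shown. The letters CAAAGNNCA, a core of the site bound by the hepatocyte nuclear receptor HNF4, were searched on both strands too and were found in 0 of the 10 windows and in 5.22% of all windows. These matches describe the printed letters and were not linked to any value.

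Liver RNA was labelled with Cy5 and a common reference RNA, a mixture from 14 rat cell lines, with Cy3 on every array. The log ratio is log2 of liver over reference, and a level is given for each gene against its own reference signal, not against another gene. All 10 genes were far above the reference. Apob averaged 7.51 over the 16 arrays, which is 183-fold over the reference. The high density lipoprotein proteins Apoa1, which activates the cholesterol-esterifying enzyme Lcat, and Apoa2 averaged 6.58 (95.5-fold) and 6.88 (118-fold). Apoc1, which hinders particle uptake by receptors, averaged 8.72 (421-fold), and Apoc3, an inhibitor of lipoprotein lipase, averaged 4.66 (25.3-fold). Apoa5, a liver protein that helps lipoprotein lipase to act, averaged 3.68 (12.8-fold), and Apoe, a ligand for remnant uptake, 5.09 (34.1-fold). Apoa4, which the intestine of many mammals also makes, averaged 3.96 (15.6-fold). Apoh, a phospholipid-binding plasma protein, averaged 5.15 (35.4-fold), and Apom, the lipocalin that carries sphingosine phosphate in high density lipoprotein, 6.45 (87.5-fold). In group C, the members' log ratios lay between the 96.8th percentile of all tested probes, for Apoa4, and the 99.9th, for Apoc1, where the median probe stood at 0.13.

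None of the 10 probes was marked saturated on any array, in either channel. The brightest liver signal of a member was 36.2% of the scanner's saturation value, for Apoe, followed by 26.9% for Apoc1 and 26.5% for Apoc3, while the remaining 7 members stayed at 13.0% or less. Both channels were well above background for all members on all 16 arrays. The reference side was thin for Apob, whose reference signal ran from 118.5 to 174.5 units and came as low as 4.65 times its local background, whereas that of Apoe ran from 11029 to 15043.5 units. Apoc1 was measured by 10 spots per array, of which 8 were left out as outliers over all arrays together, Apom by 1 spot and the others by 2.

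The members differed in how much they varied between pools of the same group. Apoe had a within-group SD of 0.11 in the log ratio, where the median of tested probes was 0.18. Apoa5 had an SD of 0.54, at the 98.5th percentile, and Apob one of 0.45, at the 96.6th. The channels show where this spread lay. In the liver channel Apoa5 had an SD of 0.17, at the 43.0th percentile of probes, while in the reference channel its SD was 0.48, at the 99.8th percentile. For Apob the order was reversed, with 0.44 in liver and 0.12 in the reference.

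**Figure D1:**
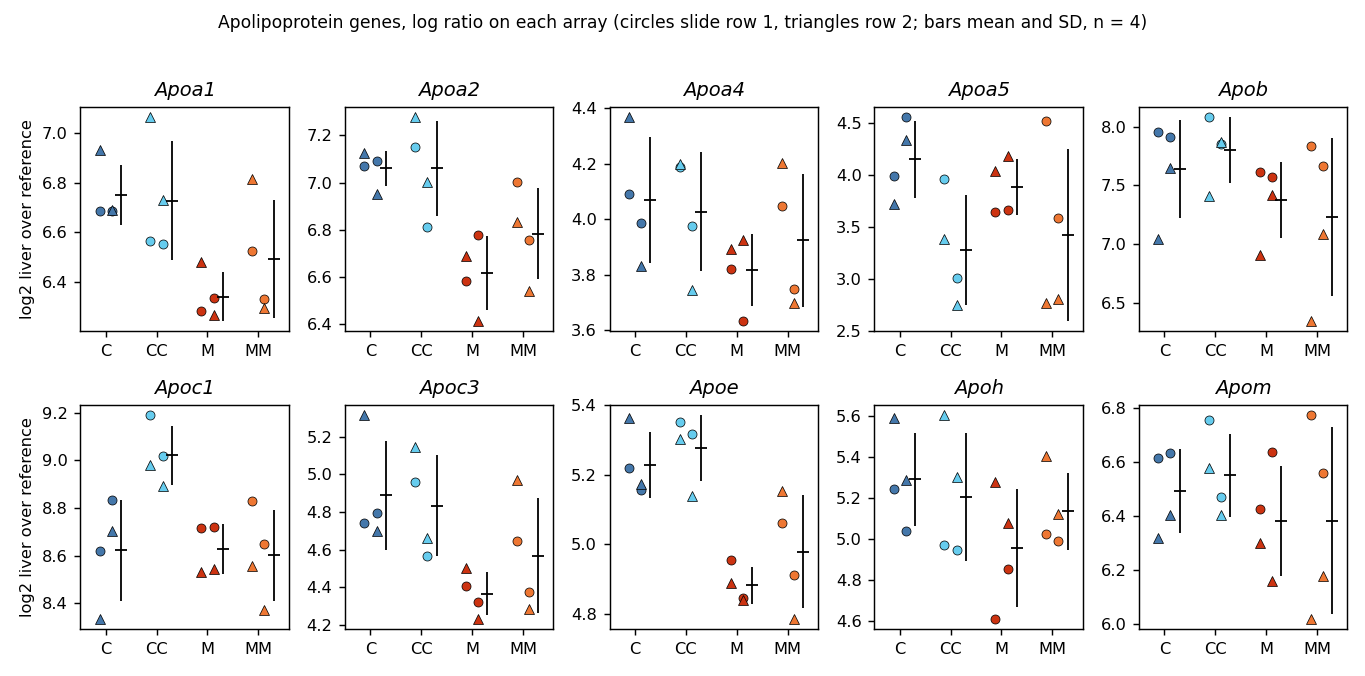
Log2 liver over reference of the 10 genes on each array (circles slide row 1, triangles slide row 2), by group, with the mean and SD of 4 arrays as bars; each panel has its own axis. The 4 CC arrays of Apoc1 lie above all other arrays, and the 4 M arrays of Apoe lie below all C arrays.

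CC minus C gives the difference between fostered and undisturbed litters of unexposed dams, with both groups on 1 slide. Apoc1 was higher in every fostered pool, while the other 9 genes had overlapping groups. Its log ratio was 8.84, 8.62, 8.34 and 8.71 in C replicates 9 to 12. In CC replicates 1 to 4 it was 9.19, 9.02, 8.98 and 8.89. The lowest fostered pool thus lay above the highest control pool. The difference was 0.40 ± 0.12 (SE, n = 4 per group), a fold of 1.32 with a 95% interval of 0.15 to 0.65 on the log2 scale, but it did not pass over all probes (limma adjusted p = 1.00). In the liver channel alone it was 0.32 ± 0.11, where CC replicate 4 lay within the range of C, and the reference differed by -0.078 ± 0.052. Within slide rows it was 0.38 in the first and 0.42 in the second. Groups without overlap occurred in 1 of the 10 members and in 0.881% of all probes.

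Apoa5 had the largest log ratio difference of the list, with a liver signal that differed little. Its log ratio was 4.55, 3.98, 3.72 and 4.33 in C and 3.96, 3.01, 3.38 and 2.74 in CC, a difference of -0.87 ± 0.34 (limma adjusted p = 1.00). The groups overlap in 1 array, CC replicate 1, which lay within the range of C. In the liver channel the difference was 0.024 ± 0.12, with a 95% interval of -0.23 to 0.28. The log2 reference signal was 9.98, 10.66, 10.55 and 10.33 in C and 10.67, 11.47, 11.14 and 11.83 in CC, and differed by 0.90 ± 0.30. In the reference channel the groups did not overlap for 1 member, Apoa5, and for 1.1% of probes. Over all arrays the raw reference signal of this probe ran from 1527.5 to 5344.5 units, although the same reference RNA was used throughout.

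For the remaining 8 genes the differences ran from -0.084 (Apoh) to 0.16 (Apob), and Apoe differed by 0.050 ± 0.089 with an interval of -0.14 to 0.24. Over the 10 members, 5 were above 0 and 5 below, with a median of -0.010, against -0.0087 over all tested probes. limma called 0 members and 0 of 12140 probes (0% called), both in the log ratio and in the liver channel (0%), and at an unadjusted p under 0.05 it counted 2 members, Apoc1 and Apoa5, and 113 probes. All 8 tested markers of sinusoidal endothelium and 11 of 14 of Kupffer cells and macrophages were above 0 in this comparison, with medians of 0.14 and 0.092 and 0 called. The summed Kupffer signal ran from 14388 to 26272 units in C and from 16360 to 23825 in CC, none of these markers was below background on every array, and their part in the Apoc1 difference was not tested. For the endothelial list the sum ran from 3629 to 5469 in C and from 4737 to 5382 in CC, and Tek was not above background on any array.

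MM minus M gives the same difference for litters of exposed dams, again within 1 slide. For Apoc1 these groups overlapped. Its log ratio was 8.72, 8.72, 8.53 and 8.55 in M replicates 5 to 8 and 8.83, 8.65, 8.56 and 8.37 in MM replicates 1 to 4. The highest and the lowest of these 8 pools were both MM pools, and the difference was -0.027 ± 0.12, with an interval of -0.27 to 0.22, turning to 0.25 with scale normalization between arrays. The members' median was 0.10 with 7 above 0, against 0.00064 over all probes. With median centring, however, it turned to -0.081, and Apoa4, Apoe and Apom turned below 0, joining Apoa5, Apob and Apoc1. The largest differences were those of Apoa5 at -0.46 ± 0.34, Apoc3 at 0.20 ± 0.17 and Apoh at 0.18 ± 0.17. Apoa5 stood at -0.83 without MM replicate 1, -0.24 without MM replicate 3 and -0.26 without MM replicate 4. Apoc3 stood at 0.069 without MM replicate 3, and Apoh at 0.066 without M replicate 5, 0.090 without MM replicate 3 and 0.29 without M replicate 7. In the liver channel the median was -0.11 with 3 above 0. limma called 0 members and 0 probes (0%) in the log ratio, and 0 (0%) in the liver channel, and at an unadjusted p under 0.05 it counted 0 members and 216 probes. The groups of 0 members stood apart in the log ratio, and of 1.06% of probes. In the reference channel those of Apoa1 and Apoc3 did, at -0.42 ± 0.18 and -0.19 ± 0.050, and of 1.69% of probes.

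The difference between the fostering effects of exposed and control litters was at an unadjusted p under 0.05 for 1 member, Apoc1. Its interaction term was -0.42 ± 0.17, with an interval of -0.78 to -0.074 (limma adjusted p = 1.00), and it was -0.36 within the first slide row and -0.49 within the second. Over 11 other settings it ran from -0.55 with median centring to -0.25 with scale normalization. In the liver channel alone it was -0.27 ± 0.16. limma called 0 members and 0 probes (0%) in the log ratio and 0 (0%) in the liver channel, and 200 probes had an unadjusted p under 0.05 in the log ratio. Of the Kupffer cell and macrophage markers 11 of 14 were below 0 in the interaction (median -0.14, 0 called), and 7 of 8 of sinusoidal endothelium were (-0.22, 0 called), and their part in the Apoc1 value was not tested. Apoa5 had the widest interval, 0.41 with bounds of -0.60 and 1.43, and its MM minus M value was 0.40 within the first row and -1.32 within the second.

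**Figure D2:**
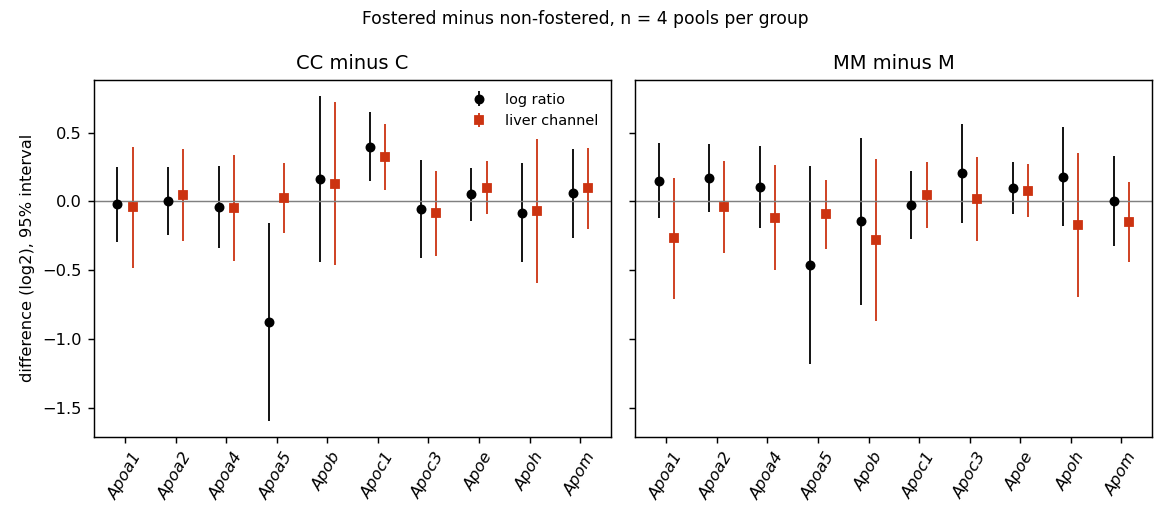
Difference between fostered and non-fostered pools (log2) for each gene, with 95% intervals, in control litters (left) and exposed litters (right); circles show the log ratio and squares the liver channel. Apoc1 is above 0 in both measures in control litters, and the Apoa5 log ratio is low there while its liver channel is at 0.024.

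M minus C sets exposed against unexposed litters that stayed with their mothers. These groups were hybridised on different slides, slide 1 holding C and CC and slide 2 holding M and MM, so exposure and slide cannot be told apart, and the same holds for MM minus CC. In the log ratio Apoa2 and Apoe fell in M, and 9 of the 10 genes were below 0, with a median of -0.30 against -0.030 over all probes, although Apom turned to 0.069 with median centring and Apoc1, the gene above 0, to -0.12 with scale normalization between arrays. In the liver channel no member passed, 5 were above 0 and 5 below, and the median was -0.0016. In the reference channel all 10 genes were higher on the slide of M, with a median of 0.29 against 0.0081 over all probes.

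Apoe, which clears remnants through hepatic receptors, held the tightest values. Its log ratio was 5.16, 5.22, 5.37 and 5.17 in C and 4.96, 4.84, 4.89 and 4.84 in M. Every M pool lay below every C pool. The difference was -0.35 ± 0.089, a fold of 0.787 (limma adjusted p = 0.0395), and it was -0.29 within the first slide row and -0.40 within the second. In the liver channel the log2 signal was 18.21, 18.17, 18.46 and 18.20 in C and 18.07, 18.08, 18.10 and 18.05 in M. These groups did not overlap either, and the liver difference was -0.19 ± 0.090 (limma adjusted p = 0.612), with an interval of -0.38 to 0.0068. Apoe was the 1 member whose liver groups stood apart, against 4.95% of probes. The reference differed by 0.16 ± 0.044 in the opposite direction.

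Apoa2, a protein of high density lipoprotein, differed in the log ratio with a liver difference close to 0. The log ratio was 7.09, 7.07, 7.12 and 6.95 in C and 6.58, 6.78, 6.69 and 6.41 in M. The groups did not overlap, and the difference was -0.44 ± 0.12, a fold of 0.735 (limma adjusted p = 0.0426). Its liver difference was 0.074 ± 0.16, and its reference difference was 0.52 ± 0.15 (limma adjusted p = 0.0120). Within slide rows the log ratio difference was -0.40 and -0.49.

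The calls of Apoa2 and Apoe depend on processing. Of 11 other settings of the log ratio, Apoa2 was called in 4 and Apoe in 5. Neither was called in a setting that changed the background, the normalization or the source of the log ratio. The calls held only under other choices of probes, which leave the members' values unchanged, or with the slide row as a block. With no background subtraction the values were close to the main ones, Apoa2 at -0.44 (limma adjusted p = 0.0501) and Apoe at -0.34 (0.0546). With offset 0 they stood at -0.31 (0.208) and -0.16 (0.428). With the scanner software's own log ratio Apoa2 stood at -0.20 (limma adjusted p = 0.401) and Apoe at -0.16 (0.214), and with median centring in place of loess at -0.22 (0.613) and -0.079 (0.921). In the authors' deposited value table they stood at -0.25 (0.290) and -0.14 (0.435). Their adjusted p lay between 0.0343 and 0.138 for Apoa2 and between 0.0261 and 0.113 for Apoe when 1 array was left out, and without C replicate 9, 10, 11 or 12 or M replicate 5, 7 or 8 neither was called. The Apoe call was also lost when M replicate 6, CC replicate 2 or CC replicate 3 was left out, and that of Apoa2 when CC replicate 1, CC replicate 4 or MM replicate 2 was.

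The other members of M minus C were not called. Apoa1 differed by -0.41 ± 0.13 and Apoc3 by -0.52 ± 0.17, both with groups that did not overlap, and their liver differences were 0.027 ± 0.21 and -0.16 ± 0.14. Groups without overlap were found in 4 of the 10 members, Apoa1, Apoa2, Apoc3 and Apoe, and in 11.1% of probes. With the slide row as a block, 4 members were called, adding Apoa1 (-0.41, limma adjusted p = 0.0307) and Apoh (-0.33, 0.0482). Apoc1 stood at 0.0050 ± 0.12. In the log ratio 4.18% of probes were called, 2.63% of them in the lower direction as a share of all probes, against 2 of 10 members, both lower, and 0.214% of probes were called in the liver channel. At an unadjusted p under 0.05 there were 4 members and 2115 probes in the log ratio and 0 members and 1019 probes in the liver channel. In the reference channel 6 members were called, all higher, among 46.8% of probes called, 24.7% of all probes being called higher. These were Apoa2, Apob, Apoc3, Apoe, Apoh and Apom, from 0.16 ± 0.044 (Apoe) to 0.52 ± 0.15 (Apoa2). The reference groups stood apart for 5 members, Apoa2, Apoc3, Apoe, Apoh and Apom, and for 41.1% of probes. The labels give the same reference RNA for every group, and the channels were separated after normalization within each array, so the reference values are not independent of the liver signal.

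**Figure D3:**
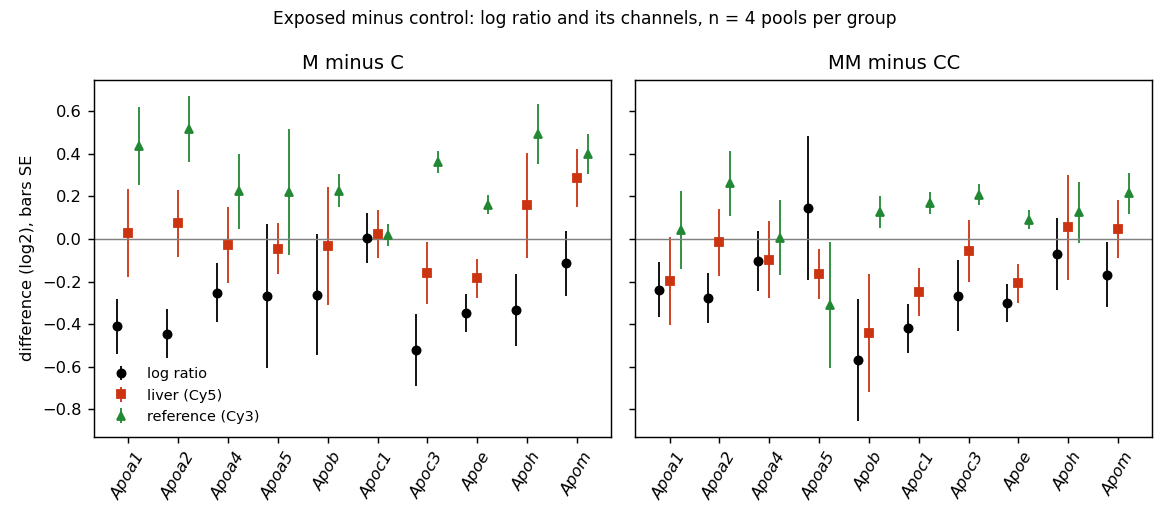
Difference between exposed and control pools (log2, bars SE, 4 pools per group) for the log ratio, the liver channel and the reference channel, without fostering (left) and with fostering (right). On the left all 10 reference values lie above 0 while the liver values scatter around 0.

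MM minus CC sets exposed against unexposed litters after fostering. The log ratio was again below 0 for 9 of 10 genes (Apoh turned to 0.0033 with median centring), with a median of -0.25 against -0.026 over all probes, and 0 members were called among 1.02% of probes called. The liver channel, with a median of -0.13, had 0 members called among 0.173% of probes. Apoc1 stood apart, with every MM value below every CC value as given above. Its difference was -0.42 ± 0.12 (limma adjusted p = 0.117), its liver difference -0.25 ± 0.11 and its reference difference 0.17 ± 0.052. With the slide row as a block, Apoc1 was called (limma adjusted p = 0.0132), and within the rows it was -0.37 and -0.47. With same-numbered CC and MM arrays paired in a replicate block it was not called (limma adjusted p = 0.0563). Groups without overlap were found in 1 of the 10 members and in 6.6% of probes. Of the Kupffer cell and macrophage markers 10 of 14 were below 0, with a median of -0.11 and 0 called. Over all tested probes 43.6% were above 0 in this comparison, and the part of these markers in the Apoc1 difference was not tested. The comparison shares its CC arrays with CC minus C, where Apoc1 was high in CC.

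Apoe differed by -0.30 ± 0.089 in MM minus CC (limma adjusted p = 0.154) and by -0.21 ± 0.090 in the liver channel, its groups overlapping because MM replicate 3, at 5.16, exceeded the lowest CC pool at 5.14. Apob differed by -0.57 ± 0.28, and its lowest pool was MM replicate 3 at 6.34. Without that array Apob stood at -0.27, and it was -0.21 within the first slide row and -0.92 within the second. In the reference channel 2 members were called, Apoc1 and Apoc3, both higher and both without overlap between groups. The share of probes called there was 44.5%, with 24.1% called higher, and groups stood apart for 41.1% of probes.

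Arrays in the 2 rows of a slide differed for some members. Each slide has 2 rows of 4 arrays, and each group has 2 arrays in each row, so rows are balanced over groups. With the row as a term in the fit, added after the data were seen, 4 members were called in the log ratio, against 42.5% of all probes. Apob differed by -0.59 ± 0.13 between the second row and the first (limma adjusted p = 0.00244), Apoh by 0.37 ± 0.072 (0.000819), Apom by -0.31 ± 0.072 (0.00258) and Apoc1 by -0.21 ± 0.062 (0.0137). All 4 had the same sign in each of the 4 groups, and for Apoh the rows stood apart in all 4. The same 4 genes were called in the liver channel, where 43.9% of probes were, with Apoh at 0.62 ± 0.073 and Apob at -0.50 ± 0.15. In the reference channel 0 members were called, against 1.28% of probes. The share of members called is close to that of all probes. Apoe, at -0.021 ± 0.060, and Apoa4, at 0.046 ± 0.098, had small row differences.

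**Figure D4:**
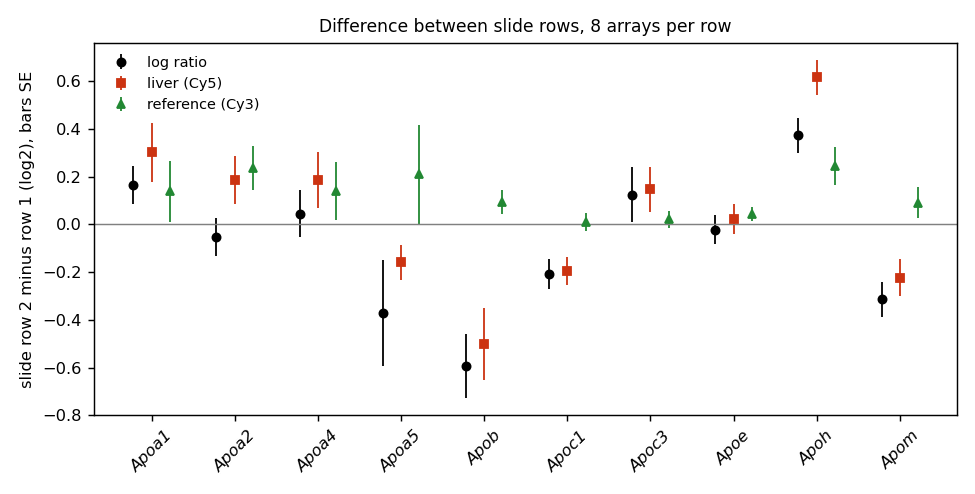
Difference between the second and the first slide row (log2, bars SE, 8 arrays per row, groups in the fit) for the log ratio, the liver channel and the reference channel. Apob, Apoc1 and Apom are lower and Apoh is higher in the second row in log ratio and liver alike.

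Across arrays the members did not vary as 1 set. Taken as deviations from the group means over 16 arrays, 28 of 45 pairs had a positive correlation in the log ratio, with a median of 0.25, 23 in the liver channel, with a median of 0.010, and 33 in the reference channel, with a median of 0.29. The highest values belonged to Apoa4 with Apoe (0.85), Apoa4 with Apoc3 (0.84) and Apoa1 with Apoc3 (0.84), and the lowest to Apob with Apoh (-0.79) and Apoa1 with Apob (-0.72). When deviations were taken within group and slide row, so that 2 arrays were compared in each of 8 cells, Apoa1, Apoa2, Apoa4, Apoc3, Apoe and Apoh correlated with each other at 0.66 to 0.93 in 15 pairs, against 0.16 to 0.85 for the same pairs as deviations from group means. These 6 genes were picked after their values were seen. Apob was negative with all 6, at -0.86 to -0.57, against -0.79 to -0.011 from group means, and Apoa5 went with Apoc1 (0.80) and Apom (0.74). In each of the 8 cells the arrays also lay in different slide columns. The array in the lower-numbered column had the higher log ratio in 8 of 8 cells for Apoc3, in 7 of 8 for Apoe and Apoa2 and in 6 of 8 for Apoa1, Apoa4 and Apoh, against 3 of 8 for Apob, and the part of the column in these correlations was not tested. The values share arrays, scanning and normalization, and they describe these 16 hybridisations.

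**Figure D5:**
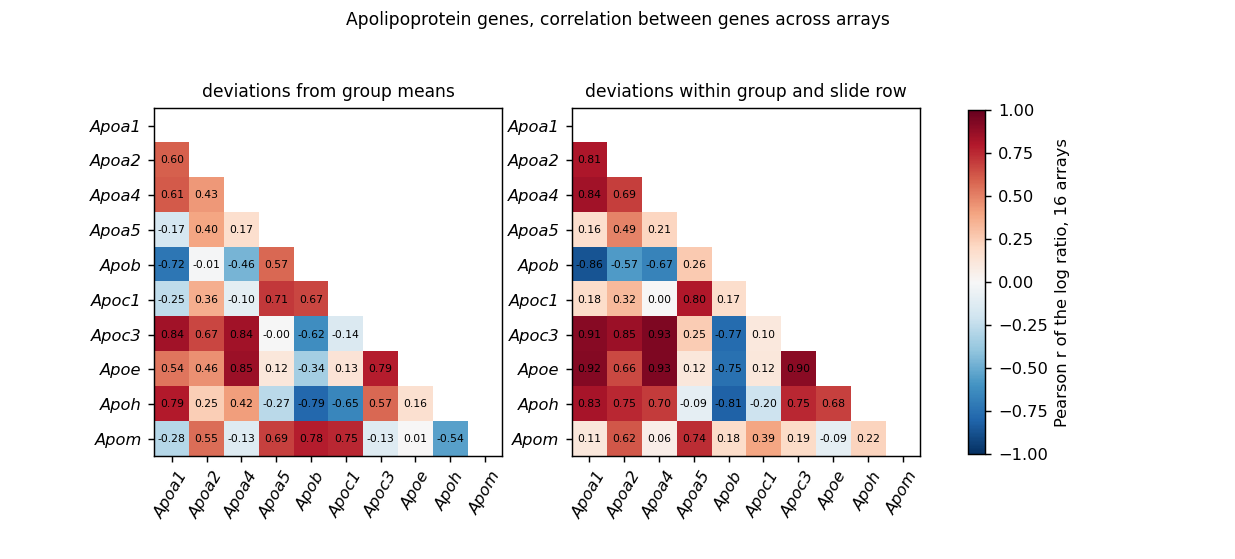
Pearson correlation of the log ratio between each pair of genes over 16 arrays, as deviations from group means (left) and as deviations within group and slide row (right). On the right each of 8 cells holds 2 arrays whose deviations mirror each other, so each value rests on 8 differences. The genes Apoa1, Apoa2, Apoa4, Apoc3, Apoe and Apoh are positive with each other on the right, and Apob is negative with each of them.

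For some members both channels of the probe moved together. The correlation of liver and reference signal, as deviations from group means, was 0.82 for Apoa1, 0.77 for Apoa2, 0.76 for Apoh and 0.72 for Apoa4, where the median probe had 0.14. It was -0.23 for Apoa5 and -0.45 for Apoc3, so that the log ratio of these probes gathers the spread of both channels. Likeness to other genes was also taken as deviations from group means, so differences between slide rows stayed in it. In the log ratio 42.5% of probes were called between rows, and Apob differed by -0.59 ± 0.13. The part of the row in the likeness values was not tested. Of 7361 other named genes, those most like Apob in the log ratio over the 16 arrays were Asgr2, a subunit of the hepatocyte asialoglycoprotein receptor (0.99), Ube2m (0.99) and Idh3b (0.99). Those most like Apom were Hscb (0.97), the plasma protein vitronectin Vtn (0.97) and Cyp2c7 (0.96). Apoa2 was most like Mug1l1 (0.95), the protease inhibitor Mug1 (0.92) and the fatty acid binding protein Fabp1 (0.92), and Apoc3 was like Cdc42ep5 (0.96) and the globin Hba-a1 (0.95). For Apoh they were Arl5a (0.96), complement factor Cfb (0.95) and Ctsz (0.95), and for Apoa1 they were Krtcap3 (0.94), the cystathionine synthase gene Cbs (0.93) and Pimreg (0.91). Apoc1 was most like Zbtb5 (0.92), Pdk2 (0.92) and Gstz1 (0.91), Apoe like Pdlim7 (0.91), Sema6c (0.90) and Ppia (0.89), Apoa4 like P3h3 (0.90), Bgn (0.87) and Hba-a1 (0.87), and Apoa5 like Aldh16a1 (0.86), C10h5orf15 (0.86) and Pdzd8 (0.84).

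Among 10 tested genes of other apolipoproteins and related carriers, Apoc2, the activator of lipoprotein lipase next to Apoc1 and Apoe, was the 1 gene called. It fell in M minus C by 0.76 ± 0.13 (limma adjusted p = 0.00359) and in MM minus CC by 0.74 ± 0.13 (0.0104) in the log ratio. Its liver differences were 0.0053 and -0.31 and its reference differences 0.76 and 0.43. Apoc4, in the same cluster, differed by 0.28 ± 0.10 in CC minus C, with 0.41 in the liver channel, and Apoc2 by 0.16 ± 0.13, neither called. The list's medians were 0.012 in CC minus C, -0.083 in MM minus M, -0.13 in M minus C and -0.22 in MM minus CC.

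The genes that load and secrete the Apob particle, 15 tested, had 0 called in any contrast. In MM minus M 13 of 15 were below 0 with a median of -0.14, and Mttp, which transfers lipid onto Apob, stood at -0.47 ± 0.29. Of 9 tested genes of high density lipoprotein formation and remodelling, 0 were called, and their medians were -0.098 in CC minus C and -0.31 in M minus C. The exporter Abca1, which hands cholesterol to Apoa1, differed by -0.29 ± 0.15 in CC minus C and Lcat by -0.48 ± 0.39 in MM minus M. Of 9 tested genes of lipoprotein receptors and uptake 0 were called. Of 18 tested regulators 0 were called, with the nuclear receptor Hnf4a at -0.18 ± 0.15 in MM minus M.

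A list of 19 tested secreted proteins of the hepatocyte, from Alb to Tf, went alongside the members in M minus C. In the log ratio 18 were below 0 with a median of -0.28, and 2 were called, Ambp at -0.61 ± 0.15 (limma adjusted p = 0.0310) and the iron carrier Tf at -0.56 ± 0.15 (0.0482). Their liver median was -0.042 and their reference median 0.31, with 12 called in the reference. Of 6 tested erythroid genes all were below 0 in M minus C, with a median of -0.49 in the log ratio and -0.62 in liver, 1 of them called, and their part in the members' values was not tested. In the same contrast 1 of 14 Kupffer cell and macrophage markers was called in the log ratio, Slc11a1, at 0.49 ± 0.11 (limma adjusted p = 0.0164). Of 8 markers of sinusoidal endothelium 1 was called, Eng, at 0.66 ± 0.15 (0.0225). The list medians were 0.053 and 0.082. In the liver channel neither gene was called, with Slc11a1 at 0.30 (limma adjusted p = 0.239) and Eng at 0.54 (0.214). The reference differed by -0.19 for Slc11a1 and -0.13 for Eng. The part of these markers in the Apoe value was not tested. The summed erythroid signal ran from 133667 to 188422 units in C and from 71288 to 117597 in M. In CC it ran from 81725 to 158183 and in MM from 88374 to 224427.

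All 14 hepatocyte markers were well above background on all 16 arrays, and their summed liver signal ran from 535713 to 804003 units. Of 10 enterocyte markers on the array, a list that itself holds Apoa4 and Apob, 5 were above background on all 16 arrays and 3, Cdx2, Slc5a1 and Vil1, on none. Of lymphocyte markers, Cd2, Cd3e and Cd8a were above background on no array. In bulk tissue, fewer cells of a type and less RNA per cell cannot be told apart.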

How the data were processed

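Agilent Feature Extraction 11.0.1.1 made the scanner files per the file headers, and the authors deposited from it the intensity of each spot in both channels, a log10 ratio of Cy5 over Cy3 and a separate value table on a log2 scale. In limma 3.58.1 (R 4.3.3) background was removed from the median intensities by normexp with an offset of 50, followed by a loess fit per array, with control spots at weight 0 and outlier spots left out. Spots of a probe were averaged, and channels were compared after quantile scaling of average intensity. A probe was tested where liver was well above background on at least 3 arrays of a group. All 16 arrays entered 1 fit of 4 group means with 12 residual degrees of freedom, with Benjamini-Hochberg adjustment over 12140 probes at 0.05. Liver was Cy5 and reference Cy3 on all arrays, so dye and sample were not exchanged. The number of arrays limits the precision. Self-tests used simulated data.

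The members and gene lists were chosen with earlier results of these data known. All members were named, and from each pathway list the 3 genes with the lowest unadjusted p in CC minus C, MM minus M and the interaction could be named, with every called gene. For each member the 3 genes with the most similar log ratio could be named. A few results that these rules would name are not reported here. Numbers 1 to 4 recur in CC and MM, and the deviations of same-numbered arrays correlated at 0.544, 0.150, 0.581 and 0.192. Same-numbered arrays also shared slide rows, and no values for differently numbered arrays are given, so these correlations cannot be tied to the numbering. Other backgrounds, normalizations, filters, channels, blocks and left-out arrays were tried.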

Additional observations from a re-analysis of the deposited data

Results flagged for a closer look

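In 120 groups of 4 arrays, over 10 genes, 4 groups and 3 measures, 5 groups had 1 array far from the others, where chance gives about 1 in 20 groups, or 6. C replicate 11 held 3 of them. Its log ratio was 6.93 for Apoa1, against 6.69 on the other C arrays, and 5.32 for Apoc3, against 4.70 to 4.79. Its log2 liver signal for Apoe was 18.5, against 18.2 on the others. M replicate 6 had a log2 liver signal for Apoa5 of 14.7, against 14.4 on the other M arrays. M replicate 5 had a log2 reference signal for Apoe of 13.1, against 13.2 on the others.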

How the results depend on the processing

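No setting called a member in CC minus C, MM minus M or the interaction. In M minus C the number of members called was 0 with no background subtraction, with offset 0, with median centring, with scale normalization, with the scanner software's log ratio, with the deposited value table and with the liver channel alone, 1 with no filter on dim probes, 4 with the slide row as a block and 6 in the reference channel. The probes called there were 1532 with the scanner software's log ratio, 26 in the liver channel, 5678 in the reference and 1303 with the row block. In MM minus CC they were 218 with median centring, 553 with the scanner's log ratio, 21 in liver, 5406 in the reference, 491 with the row block and 17 when the CC and MM arrays were fitted alone, with 2 members called in the reference and 1 with the row block. With the replicate block, pairing same-numbered CC and MM arrays, 160 probes and 0 members were called and Apoc1 had a limma adjusted p of 0.0563. Leaving out 1 array gave 244 to 598 probes and 0 to 2 members in M minus C, and 46 to 130 probes in MM minus CC.

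The members' median in CC minus C turned to 0.031 with offset 0, 0.066 with scale normalization, 0.075 with the scanner's log ratio, 0.025 with the deposited table, 0.036 in liver and 0.0054 in the reference. In MM minus M it was -0.081 with median centring, 0.25 with scale normalization, -0.11 in liver and -0.17 in the reference. In the interaction it was 0.026 with offset 0, -0.0051 with median centring, -0.0074 with the scanner's log ratio, 0.022 with the deposited table, -0.11 in liver and -0.20 in the reference. In M minus C it was -0.11 with median centring, -0.0016 in liver and 0.29 in the reference, and in MM minus CC it was 0.13 in the reference.

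Among single genes, signs turned for values that were not called. With offset 0 these were Apoa4 (0.012) and Apoc3 (6.05e-05) in CC minus C, Apom in MM minus M (-0.0071), and Apoa4 (-0.0017) and Apoe (-0.11) in the interaction. With median centring they were Apoa2 in CC minus C (-0.013), Apoa4 (-0.075), Apoe (-0.086) and Apom (-0.12) in MM minus M, Apoa4 (-0.029) and Apoe (-0.15) in the interaction, Apom in M minus C (0.069) and Apoh in MM minus CC (0.0033). With scale normalization they were Apoa1 in CC minus C (0.053), Apob (0.077) and Apoc1 (0.25) in MM minus M, Apom in the interaction (0.067) and Apoc1 in M minus C (-0.12). With the scanner's log ratio they were Apoa1 (0.077), Apoa4 (0.038), Apoc3 (0.044) and Apoh (0.033) in CC minus C, Apoa4 (-0.066), Apob (0.079) and Apoc1 (0.018) in MM minus M, and Apoa2 (-0.013), Apoa4 (-0.10) and Apoe (-0.096) in the interaction. With the deposited table they were Apoa1 (0.0055) and Apoa4 (0.0017) in CC minus C, Apoa4 (-0.0064) and Apoe (-0.0023) in MM minus M, and Apoa4 (-0.0081) and Apoe (-0.13) in the interaction.

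With 1 array left out, CC minus C ran from -0.13 to 0.040 for Apoa1, -0.072 to 0.084 for Apoa2, -0.12 to 0.057 for Apoa4, -0.038 to 0.29 for Apob, -0.16 to 0.088 for Apoc3, -0.22 to 0.015 for Apoh and -0.010 to 0.11 for Apom. MM minus M ran from -0.35 to 0.15 for Apob, -0.10 to 0.050 for Apoc1 and -0.13 to 0.12 for Apom. The interaction ran from -0.012 to 0.11 for Apoe and -0.19 to 0.066 for Apom, M minus C from -0.091 to 0.076 for Apoc1, and MM minus CC from -0.22 to 0.37 for Apoa5 and -0.16 to 0.063 for Apoh. The cause of these changes was not tested. The Apob reference signal was the closest to background.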
